A study of Mus musculus with 78 samples.

Results

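The central nucleus of the amygdala (CeA) of mice bred for high anxiety-related behavior (HAB) was compared with that of mice bred for low anxiety-related behavior (LAB). All arrays titled CeA with line HAB (6 arrays) or LAB (5 arrays) were taken, 11 of the 75 arrays that carried values and of the 78 in the labels. Each array held the RNA of a single male mouse of 10 weeks from breeding generation 25, cut by laser from cresyl violet-stained sections and read on an Illumina MouseWG-6 v1.1 bead array. Both lines were derived from CD-1 mice by selection on the elevated plus-maze, no treatment is named beyond behavioural testing, and 6 CeA arrays of the normal line (NAB) entered the same fit. The HAB arrays came from mice 01, 05, 09, 11, 17 and 20, the LAB arrays from mice 03, 06, 14, 19 and 21 and the NAB arrays from mice 02, 04, 08, 13, 15 and 18, so that no mouse stood in more than 1 line. Mice of a line are related to each other, so that a difference that goes with the selected behaviour cannot be told apart from one that became fixed by chance during breeding.

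The CeA is the main output nucleus of the amygdala. Its neurons are mostly GABAergic and striatum-like. They express peptides such as somatostatin, neurotensin and enkephalin and project to the hypothalamus and brainstem, where they set freezing, autonomic and hormonal responses to threat. The basolateral nucleus (BLA), which lies beside it, is built like cortex, with glutamatergic pyramidal neurons that feed the CeA.

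The dissected tissue carried the transcripts of this nucleus. The kinase gene Prkcd, which marks a class of CeA neurons, had a median intensity of 100.8 over the 17 CeA arrays and of 23.03 over the 16 BLA arrays. The medians of the tachykinin precursor gene Tac2 were 132 and 20.0, and those of the neurotensin gene Nts were 89.1 and 27.7. Slc17a7, the vesicular glutamate transporter of pyramidal neurons, had a median of 34.1 in the CeA and of 479 in the BLA. It reached between 29.7 and 162 on the HAB arrays of the CeA and between 7.498 and 46.5 on the LAB arrays. Crh, the gene of the stress hormone-releasing peptide, was not above background on any CeA array. The intensity is the normalised fluorescence of a bead type, in arbitrary units, and levels of different probes are not comparable. Background was set on each array from 1305 probes for receptors of odorants and pheromones, at their percentile 95, which lay between 8.30 and 9.45 units. Of all probes 32.5% to 37.4% lay above it. The arrays of each line correlated with each other at 0.943 to 0.982 (HAB) and 0.929 to 0.977 (LAB), and HAB with LAB arrays at 0.928 to 0.972.

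HAB and LAB differed at 2.22% of the probes tested in the CeA. Of 17974 probes that lay above background on at least 5 CeA arrays, 399 (2.22%) differed between the lines at an adjusted p under 0.05 (limma, Benjamini-Hochberg adjustment). Of these, 205 (1.14%) were higher and 194 (1.08%) lower in HAB. The 315 called probes that carry a single gene symbol belonged to 293 genes, 145 with a higher and 151 with a lower probe, of which 3 had both. The median difference of all tested probes was -0.00845 on the log2 scale and the median standard error 0.135. The median fold of the called probes was 1.97, 191 probes differed by more than 2-fold and 54 by more than 4-fold. On 344 of the 399 probes every HAB array lay on the same side of every LAB array, which held for 504 of all tested probes (2.8%). In bulk tissue, fewer cells of a type and less RNA per cell cannot be told apart.

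**Figure D1:**
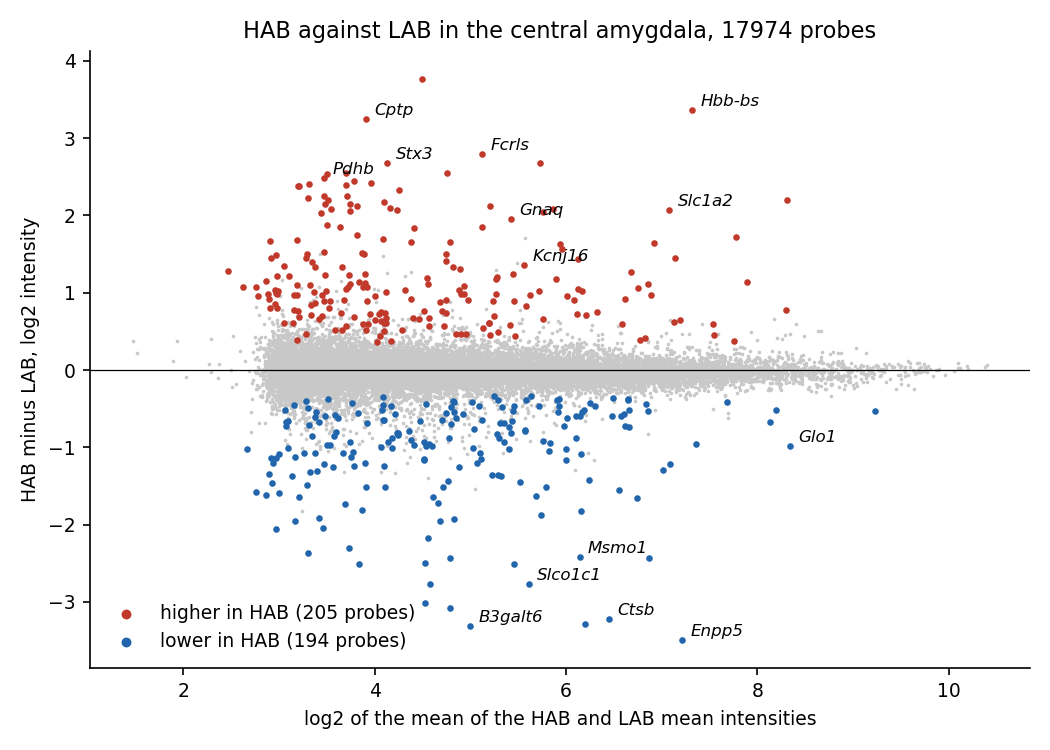
HAB minus LAB on the log2 scale (vertical axis) against the mean intensity of the 2 lines on the log2 scale (horizontal axis) for 17974 probes in the CeA. Coloured points are the 205 probes higher and the 194 lower in HAB at an adjusted p under 0.05, and grey points are all other probes. Enpp5 and Ctsb lie at the bottom, Hbb-bs and Cptp near the top, and called probes occur among dim and bright probes.

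Among the genes above background on every array of both lines, the largest decreases in HAB were seen for Enpp5 and Ctsb. Enpp5 codes for a membrane protein of the ectonucleotide pyrophosphatase/phosphodiesterase family. Its HAB arrays ran from 16.6 over a median of 25.9 to 32.8, and the LAB arrays read 304, 292, 249.5, 206 and 309.8. Every LAB array was thus far above every HAB array, with a log2 difference of -3.49 ± 0.62 (SE; adjusted p 0.00237 by limma). The NAB arrays ran from 17.6 to 260.0 and fell into both ranges, 3 among the HAB and 3 among the LAB values.

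Ctsb, which codes for the lysosomal cysteine protease cathepsin B, was about as much lower. HAB arrays had a lowest intensity of 12.1, a median of 17.7 and a highest of 21.1, whereas the LAB arrays read 107, 131, 167, 181 and 202. The difference was -3.23 ± 0.21 (SE; adjusted p 1.74e-08 by limma), and the NAB arrays (92.1 to 187) overlapped with LAB alone. A second probe for Ctsb read 53.8 ± 8.93 in HAB and 44.0 ± 5.86 in LAB (SD), with a difference of +0.28 (adjusted p 0.491), so that the 2 probes of this gene did not give the same result.

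Msmo1, an enzyme of cholesterol synthesis, had HAB intensities from 11.9 to 32.8 with a median of 25.7, and LAB intensities of 101, 135, 114, 119 and 122. The difference was -2.42 ± 0.20 (SE; adjusted p 4.29e-07 by limma), and the NAB arrays (81.8 to 99.7) lay between both lines. Slco1c1, the thyroid hormone transporter of brain capillaries and astrocytes, ran from 6.89 over 14.8 to 19.3 in HAB and read 79.8, 85.6, 78.3, 73.8 and 104 in LAB. Its difference was -2.77 ± 0.28 (SE; adjusted p 4.91e-06 by limma), and here the NAB arrays (5.90 to 13.2) overlapped with HAB. Only 4 of the HAB arrays lay above background for Slco1c1, which limits the size of its difference. Kbtbd11, a gene for a kelch-repeat protein, was at 37.3 ± 11.5 in HAB and 196 ± 39.1 in LAB (SD).

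Like that of Slco1c1, the other decreases of this size started from a HAB signal near or at background. Where every HAB array lay at background, the fold is a lower bound, for which the background level of the array stood in for the dim values. B3galt6, a galactosyltransferase of proteoglycan synthesis, was at background on all HAB arrays (3.76 to 8.27) and read 59.2, 50.2, 63.4, 53.0 and 63.7 in LAB, so that it was at least 6.49-fold lower in HAB (adjusted p 1.10e-09 by limma). The same bound was 5.35-fold for Zfp871, which codes for a zinc finger protein, and 4.59-fold for Ttc27, a tetratricopeptide repeat gene. Nipbl, the loader of cohesin onto chromatin, had 51.0, 25.6, 43.4, 57.6 and 56.3 in LAB and between 7.79 and 8.70 in HAB. Runx1t1, a transcriptional corepressor, ran from 8.84 to 17.2 in HAB and from 67.7 to 86.8 in LAB, and Ccdc88a, an actin-binding protein, from 2.11 to 9.96 and from 24.8 to 54.4. Tmem14c, a mitochondrial membrane protein of heme synthesis, read 185, 12.7, 173, 146 and 164 in LAB and 9.12 to 12.4 in HAB. One LAB mouse (06) thus lay just above the HAB range.

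Among increases, the beta-globin gene Hbb-bs had the largest value of all named genes. On its most different probe the HAB arrays ran from 168 over 242 to 423, and LAB read 134, 12.5, 21.2, 18.2 and 16.8. LAB mouse 03 thus stood close to the lowest HAB array, and the difference was +3.36 ± 0.56 (SE; adjusted p 0.00129 by limma). Of its 9 tested probes 3 were called, all higher, while the other 6 had differences between +0.05 and +0.65. Hbb-b2, the neighbouring beta-globin gene, was lower in HAB (8.41 ± 1.53 against 18.9 ± 9.45, SD; adjusted p 0.0263 by limma). The beta-globin genes are near-identical copies, and how their probes divide the signal was not tested. The sum over 6 erythrocyte marker genes ran from 562 to 1279.6 in HAB and from 432 to 718 in LAB, 11 of their 14 probes had an unadjusted p under 0.05, and the part of blood left in the tissue was not tested.

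Gnaq, the alpha subunit that couples receptors to phospholipase C, was 3.88-fold higher in HAB on 1 probe. Its intensities were 55.4 to 83.0 in HAB with a median of 68.1, and 16.8, 15.3, 19.7, 17.2 and 18.9 in LAB (+1.96 ± 0.11, SE; adjusted p 3.72e-09 by limma). NAB (15.0 to 20.5) overlapped with LAB alone. A brighter Gnaq probe read 199 in HAB and 200 in LAB (adjusted p 0.999 by limma). Slc1a2, the astrocytic glutamate transporter that clears most glutamate from synapses, ran from 126 over 232 to 249.9 in HAB and read 37.3, 31.5, 47.6, 71.9 and 81.8 in LAB. This difference of +2.07 ± 0.39 (SE; adjusted p 0.00451 by limma) stood beside +0.39 on a second probe (124 ± 11.5 against 94.6 ± 3.63, SD; adjusted p 0.038) and +0.18 on another, which missed the threshold (adjusted p 0.972). Kcnj16, an inwardly rectifying potassium channel subunit, had 59.5 to 78.2 in HAB with a median of 67.4 and 21.4, 23.1, 30.5, 31.5 and 27.2 in LAB, a difference of +1.36 ± 0.11 (SE; adjusted p 3.48e-07 by limma).

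Abca2, Aldh3a2, Fcrls and Hmgn3 were also higher in HAB. Abca2, a lipid transporter of lysosomes, was at 39.5 ± 4.51 in HAB and 14.2 ± 3.14 in LAB. Aldh3a2, the fatty aldehyde dehydrogenase, was at 92.7 ± 12.0 and 31.4 ± 5.26. Fcrls, a receptor gene typical of microglia in mice, reached 51.7 to 73.8 in HAB and 7.78, 7.22, 8.79, 8.59 and 11.7 in LAB, where 3 of 5 arrays lay above background (+2.80 ± 0.26, SE; adjusted p 2.00e-06 by limma). Hmgn3, a nucleosome-binding protein, was at 158 ± 14.6 and 74.1 ± 17.1 (SD; +1.12, adjusted p 0.000617 by limma), and 2 other Hmgn3 probes differed by +0.49 and -0.05 and were not called.

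For 56 of the 205 higher probes every LAB array was at background, and for 40 of the 194 lower ones every HAB array. Among the former were Cptp, a ceramide-1-phosphate transfer protein (at least 3.08-fold higher in HAB; 23.7 to 34.1 against 2.32 to 4.16), and Stx3, a syntaxin of vesicle fusion (at least 3.45-fold; 26.3 to 33.1 against 3.67 to 5.76). They also included Pdhb, the beta subunit of pyruvate dehydrogenase (at least 2.14-fold), Rtn4, the gene of the neurite outgrowth inhibitor Nogo (at least 1.88-fold), Vars2, the mitochondrial valyl-tRNA synthetase (at least 2.52-fold), Twistnb, an RNA polymerase I subunit (at least 2.87-fold), and Spata7, a ciliary gene (at least 2.17-fold, with a second probe at 35.9 and 33.2, adjusted p 0.969). Riok1, a kinase of ribosome assembly, was at least 1.69-fold higher, Zfp318, another zinc finger gene, at least 2.48-fold and the transcript C030034I22Rik at least 2.59-fold. A probe with no gene name, 6100440, had the smallest adjusted p of all (2.44e-10 by limma), with 37.8 to 54.0 in HAB and 2.42 to 4.05 in LAB.

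**Figure D2:**
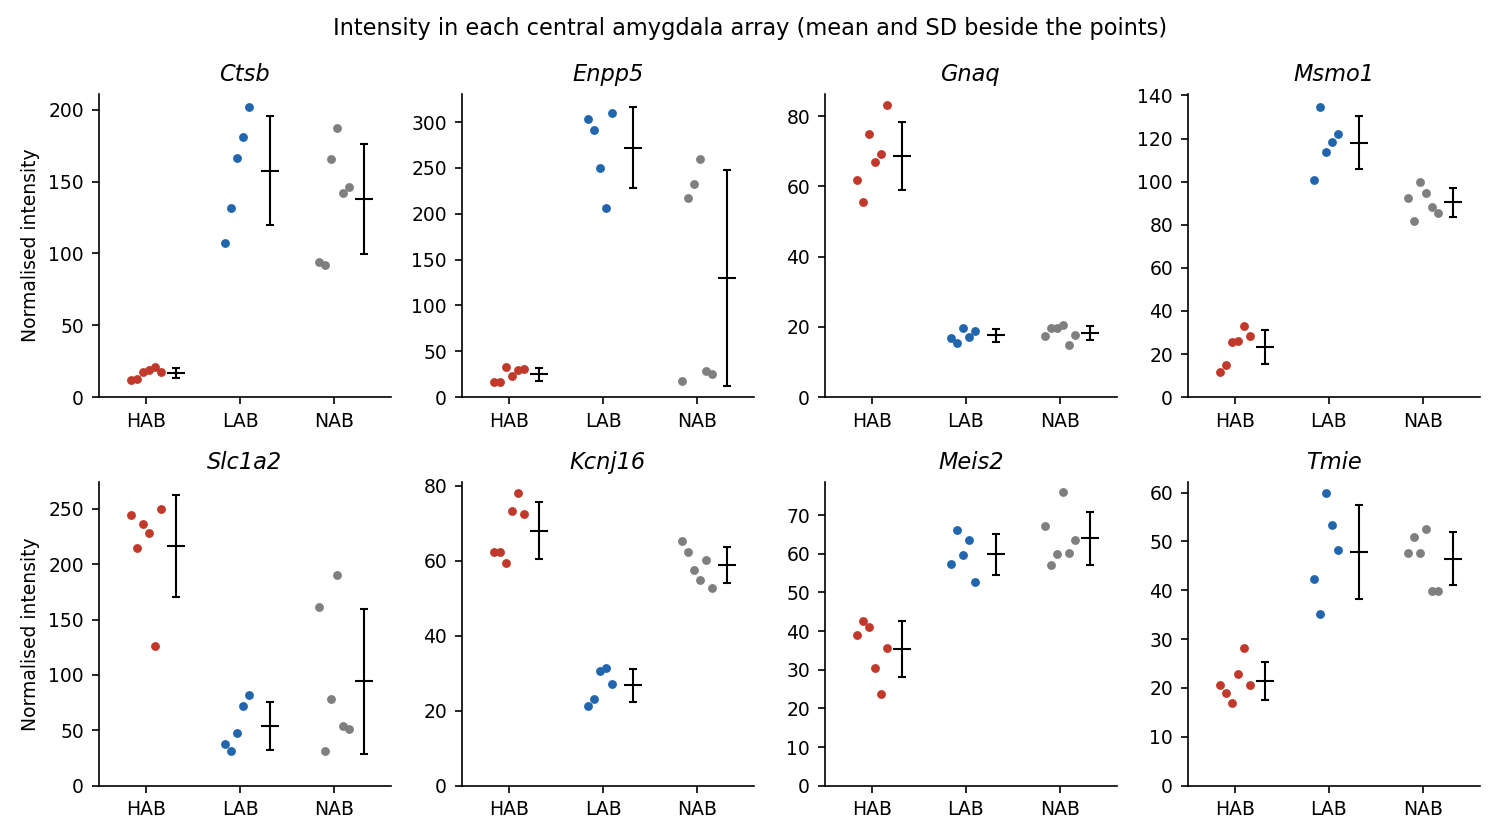
Normalised intensity (vertical axes, from 0) of 8 probes on each CeA array of the HAB (6 arrays), LAB (5) and NAB (6) lines, with the mean and SD in black. HAB and LAB do not overlap in any panel, whereas the NAB arrays overlap with LAB alone for Gnaq and Meis2 and fall into 2 separate ranges for Enpp5.

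Several genes were seen by more than 1 probe, which allowed each result to be set beside other parts of the transcript. Of the 293 called genes, 161 had 1 tested probe and 132 had 2 or more. All tested probes were called in the same direction for 11 genes, at least 2 but not all for 4, and 114 genes had 1 called probe beside others that were not. In 57 of these 114 at least 1 of the other probes had the opposite sign. The 3 probes of H2-T23, which codes for the nonclassical MHC class I molecule Qa-1, were all higher in HAB, by +2.09 and +0.59 on the log2 scale and, on the probe at background in LAB, at least 1.60-fold (adjusted p 1.09e-05, 0.0129 and 0.000106 by limma). MHC class I genes share much sequence, and how its probes divide the signal among them was not tested. The 3 probes of Rapgef5, an exchange factor for Rap GTPases, were higher by +1.40, +0.98 and +0.99, and the 2 of Zfp318 at least 2.48-fold and by +0.82. For Usp53 and Twistnb both probes were at background in all LAB arrays, with bounds of 2.43-fold and 1.01-fold and of 2.87-fold and 1.74-fold. In D430041D05Rik both probes were higher (+1.87 and +0.89). Both probes of B3galt6 were lower (at least 6.49-fold, and by -0.55 on the second), and of Sorcs1, a sorting receptor of neurons, 2 were lower (-2.17, and at least 1.73-fold) and the third, much brighter, was at 69.1 in HAB and 70.3 in LAB.

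By contrast, several of the largest differences stood alone. The other 4 probes of Nipbl differed by +0.02 to +0.05, 3 other probes of Gnaq by -0.34 to -0.01, and the other probes of Stx3, Pdhb and Runx1t1 by -0.03, +0.09 and +0.13. For Rtn4 the other 2 probes lay lower in HAB (-0.84 and -0.09; adjusted p 0.0886 and 0.884). Vars2 was called in both directions, with a second probe lower in HAB (35.7 against 51.6; -0.53, adjusted p 0.000237 by limma), as were Rfng and Hmgxb3. A bead probe reads 1 short stretch of a transcript. For Ctsb, Pdhb, Abca2, Enpp5 and Hmgn3 the paper lists the line difference as upheld by qPCR on whole brain, not on the CeA. For Stx3 the paper reports the opposite direction by qPCR on whole brain and, in separate samples, on the BLA. It proposes that base differences between the lines in an exon of Stx3 could raise the affinity of array probes for HAB RNA. Whether a base difference between the lines or a transcript isoform lay under a probe was not tested.

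**Figure D3:**
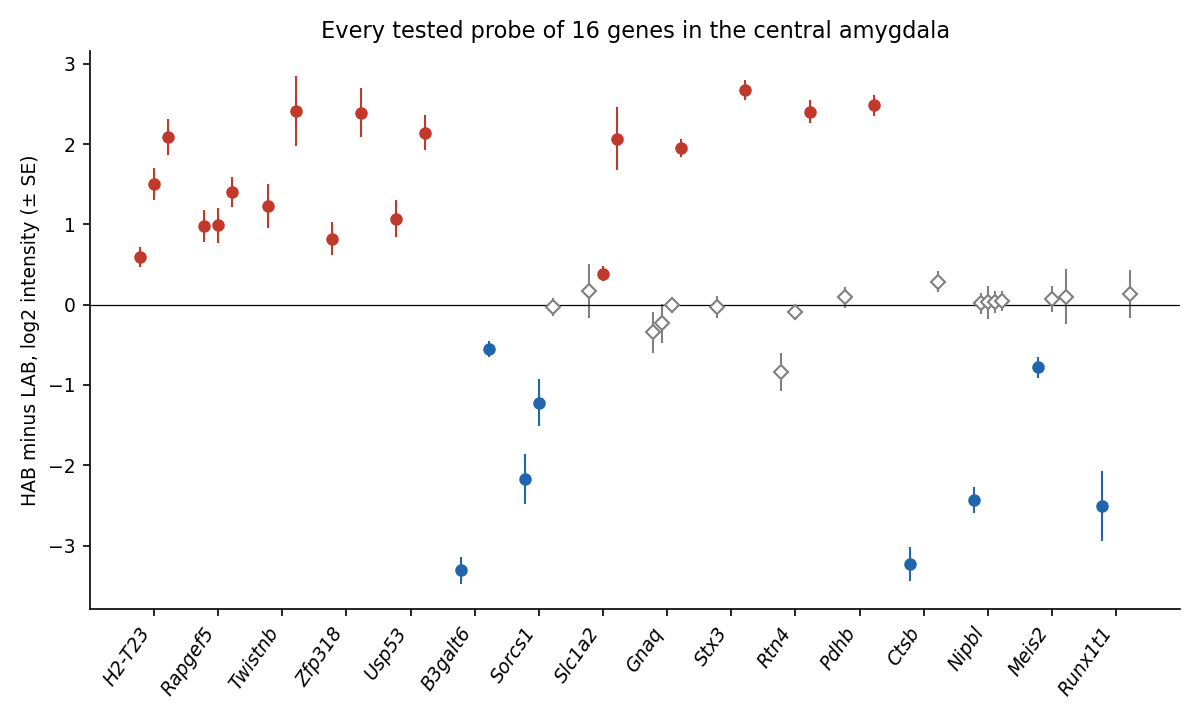
HAB minus LAB on the log2 scale (vertical axis; bars are SE from the fit) for every tested probe of 16 genes in the CeA (horizontal axis). Filled circles passed the threshold, higher in HAB in red and lower in blue, and open diamonds did not. The probes of H2-T23 and Rapgef5 lie on the same side of 0, while Gnaq, Stx3, Ctsb and Nipbl each have a single called probe beside others near 0.

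Of 19 tested probes of CeA neuropeptide and granin genes 1 (5.26%) was called, against 2.22% of all probes. This and the other gene lists were chosen with earlier results of these data known, so that their shares are no test of an excess. It was that of chromogranin A (Chga), a core protein of secretory granules, at 49.0 ± 5.97 in HAB and 71.7 ± 9.83 in LAB (-0.55, adjusted p 0.0245 by limma). This call was lost in 7 of 23 alternatives, without the filter and without HAB mouse 01, 05 or 09 or LAB mouse 14, 19 or 21. A second Chga probe was at 17.1 in HAB and 28.6 in LAB (adjusted p 0.0504). The list had a median difference of -0.17, and 3 probes had an unadjusted p under 0.05. The share of all tested probes at such a p was not determined, which limits every such count in the text. Among those not called, somatostatin (Sst) read 412 ± 92.8 in HAB and 409 ± 94.5 in LAB, Prkcd 102 ± 20.7 and 97.0 ± 17.7, the enkephalin precursor Penk 24.4 ± 4.78 and 26.3 ± 3.79, and neuropeptide Y (Npy) 147 ± 45.6 and 178 ± 16.5. None of 25 probes of neuropeptide receptors was called, none of 21 of monoamine and cholinergic genes, none of 39 of calcium and sodium channels and none of 22 of immediate early genes, with 2, 4, 1 and 5 probes at an unadjusted p under 0.05. The median differences of these lists were -0.04, -0.05, -0.01 and +0.19, with 9, 7, 18 and 18 probes above 0.

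Dlk1 and Meis2, both brighter in the CeA than in the BLA, were lower in HAB. Dlk1, a membrane protein of the Delta/Notch family, was at 15.5 to 26.2 in HAB and at 31.2, 38.7, 30.8, 60.6 and 76.0 in LAB (-1.08 ± 0.27, SE; adjusted p 0.0396 by limma). The call was lost in 10 of 23 alternatives (adjusted p up to 0.131), 7 of which left out 1 array, HAB mouse 01, 05, 09 or 20 or LAB mouse 06, 19 or 21. Its second probe gave the same difference, -1.08, with an adjusted p of 0.0658, and had a median of 58.7 in the CeA and 257 in the PVN. Meis2, a homeobox transcription factor of striatal-type neurons, was at 35.4 ± 7.16 in HAB and 59.8 ± 5.24 in LAB on 1 probe (-0.78, adjusted p 0.00154 by limma), while 2 other probes differed by +0.07 and +0.10. It was the called gene among 44 probes of striatal-type signalling (2.27%, against 2.22% of all probes). The sum over 15 CeA marker genes was between 1802 and 2611 in HAB and between 2018 and 3144 in LAB, and that over 9 pyramidal neuron markers between 445 and 801 in HAB and between 424 and 565 in LAB. The part of tissue composition in the results above was not tested.

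Inhibitory and excitatory transmission contributed single genes. Between 4% and 4.76% of the probes of the GABA, glutamate, synaptic vesicle and potassium channel lists were called, against 2.22% of all probes. Gabbr1, a subunit of the metabotropic GABA-B receptor, was lower in HAB, with 56.1 to 83.5 against 128, 103, 116, 130.0 and 132 in LAB (-0.72 ± 0.11, SE; adjusted p 0.000354 by limma). It was the called gene among 25 probes of GABA transmission, and another Gabbr1 probe read 20.8 and 21.7. Slc1a2 was the called gene among 42 probes of glutamate transmission, whose median difference was +0.08. At the synaptic vesicle, 3 of 66 probes were called. Stx3 was higher on a single probe, against the direction of the paper's qPCR. Sv2a, a vesicle protein that binds levetiracetam (214 ± 23.03 against 347 ± 73.7), and Syngr1 (8.39 ± 0.29 against 11.1 ± 0.869), a vesicle membrane protein, were lower. The HAB level of this Syngr1 probe lay near the array background (8.30 to 9.45), so that its difference has no exact size. Another Sv2a probe differed by -0.17 (adjusted p 0.917), and 2 brighter Syngr1 probes by -0.08 and +0.01 (adjusted p 0.968 and 0.998). The Syngr1 call was lost in 7 of 22 alternatives, among them without LAB mouse 06 or 14. Of 45 potassium channel probes, Kcnj16 was higher and Kcnh1, a voltage-gated subunit, lower. The Kcnh1 arrays overlapped, since 4 HAB mice lay at 11.4 to 13.9 and the other two at 43.2 (mouse 20) and 72.7 (mouse 17), against 59.7 to 96.4 in LAB (-1.88, adjusted p 0.00845 by limma).

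In metabolism, single called probes of opposite direction stood within the same list. Between 3.70% and 6.45% of the probes of the pyruvate, lysosomal, zinc and stress hormone lists were called, against 2.22% of all probes. The shares were 12.5% of 16 glyoxalase and aldehyde probes and 10% of 30 sterol and thyroid hormone probes. Glo1, which detoxifies methylglyoxal, had HAB arrays from 195 over 217 to 241 and LAB arrays of 443, 434, 417, 393 and 467, a difference of -0.99 ± 0.17 (SE; adjusted p 0.00188 by limma), and NAB arrays from 186 to 414. Pdhb was higher on 1 probe and read 41.8 in HAB and 39.1 in LAB on a brighter probe (adjusted p 0.947 by limma). Pdk2, a kinase that switches pyruvate dehydrogenase off, was lower (19.3 ± 2.67 against 35.6 ± 5.33, SD; adjusted p 0.00161 by limma), and the remaining 29 probes of pyruvate oxidation and the citrate cycle were not called. Of 51 lysosomal probes 2 were called, that of Ctsb and that of the mannosidase Man2b1 (58.1 ± 3.86 against 85.2 ± 9.55; second probe -0.23, adjusted p 0.692), 14 had an unadjusted p under 0.05, and the median of that list was -0.10. Among 27 probes of metallothioneins and zinc transport the zinc transporter Slc30a6 was higher on 1 probe (21.6 ± 1.51 against 8.08 ± 3.20) and at 21.0 and 20.8 on another (adjusted p 0.994). Of 21 probes for the stress hormone axis and glucocorticoid response, Fkbp4, a cochaperone of the glucocorticoid receptor, was higher (9.06 to 13.7 in HAB, and at background in LAB), and another Fkbp4 probe, far brighter, gave -0.18 with an adjusted p of 0.599. Avp, the vasopressin gene, was at 22.9 ± 14.7 and 39.5 ± 16.4 (adjusted p 0.493). Spring1, an activator of sterol synthesis, was at least 2.43-fold higher on a probe at background in LAB, whereas Msmo1 was lower. Apbb1, an adaptor of the amyloid precursor protein, was lower (112 ± 9.54 against 218 ± 27.7), and Dgkq, a diacylglycerol kinase, was at least 2.06-fold higher on 1 probe and differed by -0.25 on another (adjusted p 0.504).

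The marker lists of CeA neurons (Dlk1), medial amygdala and hypothalamic neurons (Ghrh), astrocytes (Slc1a2), microglia, endothelial cells (Slco1c1) and erythrocytes (Hbb-bs and Hbb-b2) held called genes. In this order, 5%, 10%, 11.8%, 22.2%, 7.69% and 28.6% of their probes were called, against 2.22% of all probes. Of 9 microglial probes, Fcrls was higher and C1qb, a subunit of complement C1q, lower (27.1 ± 2.90 against 42.8 ± 6.47; adjusted p 0.00606 by limma), with a list median of -0.19. The sum over microglial markers was 245 to 298 in HAB and 235 to 303 in LAB. This sum includes Fcrls, whose mean was 60.8 in HAB and 8.82 in LAB, so that it does not show an equal level of the other markers. Of the 9 probes 2 had a difference above 0, and 5 had an unadjusted p under 0.05. The summed endothelial markers did not overlap, at 449.7 to 517 in HAB and 569.8 to 645 in LAB. Without Slco1c1 they ran from 437 to 500.2 and from 496 to 542. No probe of the 22 for oligodendrocytes, 13 for striatal projection neurons or 10 for pyramidal neurons was called, with 4, 2 and 4 at an unadjusted p under 0.05. Their median differences were -0.08, +0.14 and +0.30, against -0.00845 for all tested probes, with 7, 8 and 9 probes above 0. Over all 20 pathway lists, 33 of 565 probes (5.84%) were called, against 2.22% of all probes. Without the genes that the study itself had carried forward from these arrays to qPCR, 17 of 518 (3.28%) were called. All lists were chosen with earlier results of these data known, so that neither share is a test of an excess. None of 11 probes of the study's qPCR reference genes was called, with 2 at an unadjusted p under 0.05. The genes carried forward to qPCR had 16 of 47 probes called, 12 higher and 4 lower, but were chosen by the study on these samples.

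Some called genes lay next to each other on the chromosomes. Of 10437 tested genes with a place in the RefSeq annotation, 292 (2.80%) were called, and chromosome 17 held 39 of 491 tested genes (7.94%). The share was 4.41% on chromosome 11, 3.92% on chromosome 7 and 0.615% on chromosome X. Of the 292 called genes 73 (25.0%) had a called gene as their next tested neighbour, compared with 473 (4.66%) of the 10145 genes that were not called. They formed 32 runs, 14 with a single direction and 18 with both. Neighbouring genes are no independent observations, so that no test was made of these counts.

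**Figure D4:**
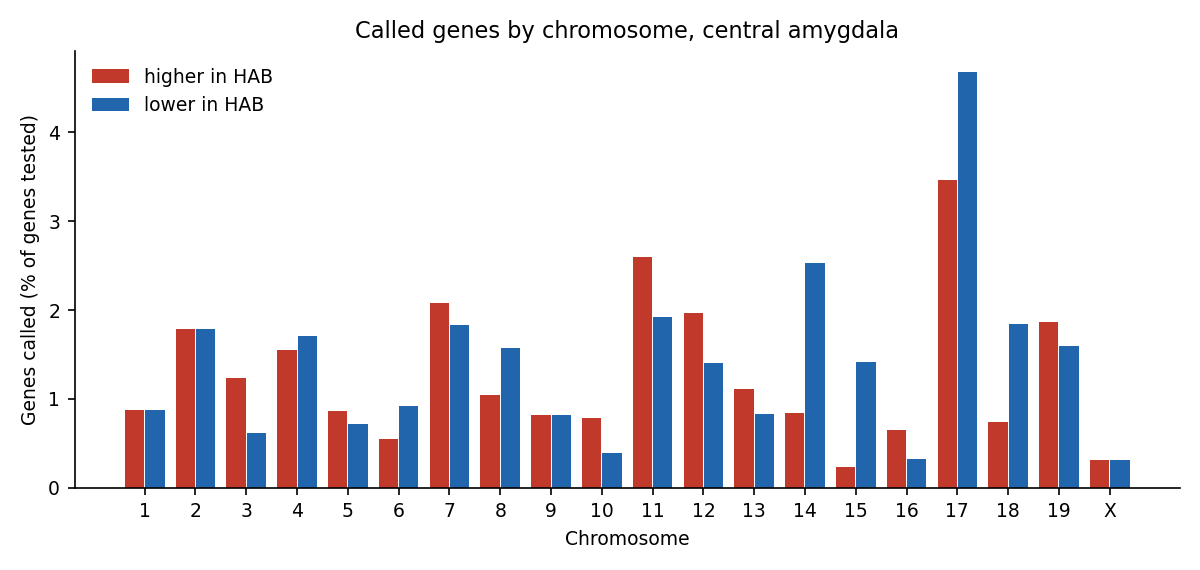
Share of tested genes with a probe higher (red) or lower (blue) in HAB in the CeA (vertical axis, percent) on each chromosome (horizontal axis). Chromosome 17 has 17 genes with a higher and 23 with a lower probe among 491, the tallest bars of both colours.

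The longest run had 5 genes on chromosome 4. From 1 end to the other these were B3galt6, which was lower in HAB, Sdf4, a calcium-binding protein of the Golgi (101 ± 19.3 against 38.8 ± 14.0; +1.44), Tnfrsf4, the costimulatory receptor OX40 (at least 1.26-fold higher), 9430015G10Rik (at least 1.54-fold lower) and Agrn, the proteoglycan agrin (at least 1.68-fold lower). A second, much brighter probe of Agrn read 323 in HAB and 275 in LAB (+0.24, adjusted p 0.210). On chromosome 17, Slc30a6 (+1.50), Yipf4, a Golgi membrane protein (15.2 to 21.4 in HAB against 3.17 to 4.85 in LAB; at least 2.08-fold higher), and Birc6, an inhibitor of apoptosis (above background on 3 of 6 HAB arrays and on no LAB array, so that no fold is given), were higher next to Ttc27, which was lower. NAB resembled HAB for all 4 of them, with means of 22.3, 17.9, 9.37 and 4.84. The runs named next had 1 direction. Med20, Tomm6, Frs3 and Foxp4 on chromosome 17 were all lower (-0.52, -0.60, -1.73 and -1.05), as were Pygb, the brain glycogen phosphorylase, Abhd12, a lysophospholipid lipase, and Ninl on chromosome 2 (-1.52, -0.47 and -0.57). Lrrc75a, Mmgt2 and Zfp286 on chromosome 11 were all higher (+0.58, +0.98 and +1.51).

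The promoter windows of the chromosome 17 run are shown because 3 of these neighbours were higher and 1 lower. Each is the 300 bases from 250 before to 50 after the RefSeq start (build GRCm38.p6), read 5′ to 3′ on the gene's strand, with GC boxes (GGGCGG on either strand) in capitals. Slc30a6 lies at chr17:74395358-74395657, Yipf4 at chr17:74489243-74489542, Birc6 at chr17:74528045-74528344 and Ttc27 at chr17:74717500-74717799, all on the plus strand.
Slc30a6: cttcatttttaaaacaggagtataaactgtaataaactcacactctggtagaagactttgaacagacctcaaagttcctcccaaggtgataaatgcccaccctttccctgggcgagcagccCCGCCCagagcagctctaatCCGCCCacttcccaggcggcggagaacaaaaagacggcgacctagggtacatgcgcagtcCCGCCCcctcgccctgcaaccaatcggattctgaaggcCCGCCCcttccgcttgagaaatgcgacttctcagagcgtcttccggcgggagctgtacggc
Yipf4: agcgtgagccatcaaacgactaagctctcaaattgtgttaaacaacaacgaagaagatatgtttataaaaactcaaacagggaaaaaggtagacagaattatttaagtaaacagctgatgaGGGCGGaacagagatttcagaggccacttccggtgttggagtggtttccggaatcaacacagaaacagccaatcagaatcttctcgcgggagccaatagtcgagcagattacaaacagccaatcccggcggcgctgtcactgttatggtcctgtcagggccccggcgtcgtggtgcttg
Birc6: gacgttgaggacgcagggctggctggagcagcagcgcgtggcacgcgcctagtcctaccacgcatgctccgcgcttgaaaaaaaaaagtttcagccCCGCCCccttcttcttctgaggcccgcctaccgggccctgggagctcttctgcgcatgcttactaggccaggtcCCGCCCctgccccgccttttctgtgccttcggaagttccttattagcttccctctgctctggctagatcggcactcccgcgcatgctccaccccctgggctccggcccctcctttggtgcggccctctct
Ttc27: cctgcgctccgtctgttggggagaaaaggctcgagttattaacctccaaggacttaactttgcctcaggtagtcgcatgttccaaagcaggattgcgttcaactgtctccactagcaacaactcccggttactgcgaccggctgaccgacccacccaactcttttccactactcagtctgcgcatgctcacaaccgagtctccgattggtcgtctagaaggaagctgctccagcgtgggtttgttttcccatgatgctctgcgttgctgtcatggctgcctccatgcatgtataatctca
The windows of Slc30a6, Yipf4 and Birc6 held 4, 1 and 2 GC boxes and that of Ttc27 none. A GC box was found in 35.9% of all 27025 promoter windows, in 62.8% of those of tested genes, in 57.1% of the 119 windows of genes higher in HAB and in 64.2% of the 120 of genes lower in HAB. These matches are a description of letters, not of bound sites.

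B3galt6 and Sdf4 start head to head, so that their windows overlap, and the former was lower and the latter higher in HAB. The B3galt6 window (chr4:155992629-155992928, minus strand) is built of a repeated unit of 23 bases, which is in capitals and occurs 9 times. Among all promoter windows 2 held this unit, those of both genes.
B3galt6: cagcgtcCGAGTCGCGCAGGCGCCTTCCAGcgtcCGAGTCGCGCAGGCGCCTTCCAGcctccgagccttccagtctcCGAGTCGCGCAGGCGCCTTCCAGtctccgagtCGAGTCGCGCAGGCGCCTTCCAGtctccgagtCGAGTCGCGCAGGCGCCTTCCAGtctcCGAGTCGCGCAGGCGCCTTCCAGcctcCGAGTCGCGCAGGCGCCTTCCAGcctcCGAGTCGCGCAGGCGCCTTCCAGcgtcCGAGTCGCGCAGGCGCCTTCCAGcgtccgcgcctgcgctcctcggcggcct

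Most called line differences of the CeA had the same sign in the other regions. In part mice of the same number gave arrays of the cingulate cortex (Cg), the paraventricular hypothalamic nucleus (PVN), the BLA and the dentate gyrus (DG), of which the DG arrays with values were 3 a line, so that these values are not taken as independent animals. Of the 399 called probes, the Cg shared the sign of 387, the PVN of 390, the BLA of 386 and the DG of 372, and the sign was shared in all 4 for 353. The median difference in the CeA was 0.978 and, in the CeA direction, 0.793, 0.787, 0.791 and 0.727 in these regions. The probes were chosen by their CeA difference, which raises the CeA median, so that the medians are not comparable in size. The sign share over all tested probes was not determined. A direct test of HAB minus LAB in the CeA against the mean of the other 4 regions (joint fit with the mouse as a random block) called 7 probes (0.0389%), and that against the BLA alone also 7 (0.0389%), while 819 and 626 had an unadjusted p under 0.05. The probes had to lie above background in the CeA alone. A probe at background in another region gives a difference near 0 there, which limits every contrast named below whose level in that region is not given.

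Tmie and the unnamed probe 105340292 were called in both contrasts. The latter was at 8.11 ± 0.827 in HAB, where 1 of 6 arrays lay above background, and at 17.3 ± 3.49 in LAB (contrasts -1.002 and -0.91, adjusted p 0.000274 and 0.0487 by limma). Tmie, a component of the mechanotransduction channel of hair cells, ran from 16.9 over 20.7 to 28.2 in HAB and read 42.3, 35.1, 60.0, 53.3 and 48.3 in LAB. The line difference in the CeA was -1.16, against -0.12 in the BLA, -0.53 in the Cg, -0.54 in the PVN and -0.16 in the DG. The CeA difference minus that of the other regions was -0.81 ± 0.14 (SE; adjusted p 0.00293 by limma), and minus that of the BLA -1.03 ± 0.18 (SE; adjusted p 0.00559 by limma). Both passed in all 16 alternatives. Tead2, a transcription factor of the Hippo pathway, was at 17.4 to 20.8 in HAB and 13.5, 10.1, 13.2, 10.3 and 15.6 in LAB (+0.65), and its difference lay between -0.01 and +0.08 in the other regions (contrast +0.62 ± 0.11, SE; adjusted p 0.00325 by limma). It missed the threshold in 2 of 16 alternatives, with median-centred arrays and without LAB mouse 19.

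Ergic3, a protein of the transport from endoplasmic reticulum to Golgi, was lower in HAB in the CeA (97.2 ± 9.25 against 131 ± 4.08, SD) and at 110.3 ± 6.90 and 110.8 ± 8.44 in the BLA (contrast with the other 4 regions -0.39, adjusted p 0.0461 by limma). The contrast passed in 3 of 16 alternatives, and a second Ergic3 probe read 31.7 and 32.6 in the CeA (adjusted p 0.997). On 1 probe Hyi, a putative hydroxypyruvate isomerase, was higher in HAB everywhere, but less so in the CeA (+0.66) than in the other regions (+0.97 to +1.40; contrast -0.56, adjusted p 0.0201 by limma; passed in 8 of 16 alternatives). Its second probe was at 10.4 ± 1.60 in HAB and at background in LAB in the CeA (at least 1.18-fold higher; adjusted p 0.000111 by limma). Klf5, a Krüppel-like factor, was called on a dim probe that lay at background on all HAB arrays of the CeA and above it on 4 of 5 LAB arrays (at least 1.32-fold lower). Its contrast with the other regions (-1.0004, adjusted p 0.0461 by limma) includes values at background and passed in 5 of 16 alternatives, and a brighter Klf5 probe was at 85.7 ± 10.2 in HAB and 86.7 ± 14.7 in LAB (adjusted p 0.999). Fam189a1 gave a contrast of +0.65 (adjusted p 0.0397 by limma), although the CeA difference itself (+0.50) missed the threshold and the DG difference was -0.69. It passed in 8 of 16 alternatives.

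Against the BLA, Kcnj16 was higher in HAB in both nuclei, but by less in the CeA (+1.36) than in the BLA (+2.10; contrast -0.74 ± 0.14, SE; adjusted p 0.0107 by limma; passed in 13 of 16 alternatives). Ghrh, the releasing hormone of growth hormone, was at 2.69 to 6.74 in the HAB arrays of the CeA, which is background, and read 12.3, 11.9, 32.4, 16.2 and 16.4 in LAB. In the PVN it was at 4.94 ± 1.31 in HAB and 68.2 ± 11.7 in LAB and in the BLA at 4.24 and 6.27. The sum over 8 markers of medial amygdala and hypothalamic neurons, Ghrh included, was 228 to 397 in HAB and 315 to 439 in LAB, and its part in this result was not tested. With HAB at background in the CeA and both line means at background in the BLA, the contrast of -1.47 (adjusted p 0.0435 by limma) has no exact size, and it passed in 6 of 16 alternatives. The stress-response gene Nupr1 was lower in HAB in the BLA (-1.39) and at 13.4 ± 2.81 against 15.0 ± 4.24 in the CeA, a contrast of +1.23 (adjusted p 0.0107 by limma), and the lymphocyte gene Cd6 had a contrast of +1.68 (adjusted p 0.0264 by limma). These passed in 15 and 11 of 16 alternatives, and both missed the threshold without LAB mouse 19.

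**Figure D5:**
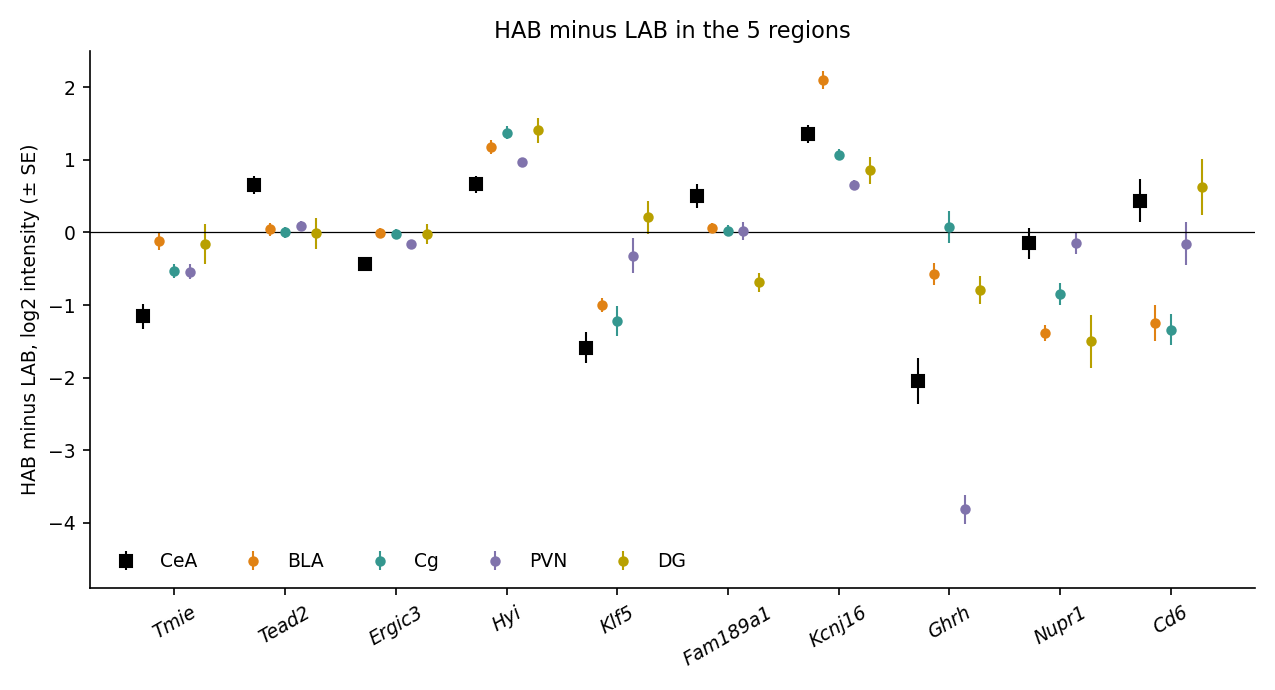
HAB minus LAB on the log2 scale (vertical axis; bars are the SE of the difference of the 2 means) in the CeA (black squares) and in the BLA, Cg, PVN and DG (circles) for the 10 named genes of the 2 region contrasts (horizontal axis). For Tmie the CeA lies below and for Tead2 above all other regions, while Kcnj16 is highest in the BLA and Ghrh lowest in the PVN.

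The NAB mice took either side, depending on the gene. On the 344 probes whose HAB and LAB arrays did not overlap, all 6 NAB arrays lay nearer to the HAB mean for 72 probes and nearer to the LAB mean for 95 (log2 scale), and NAB arrays lay on both sides for 177. Of the 180 among them that exceeded 2-fold, these numbers were 45, 62 and 73. Cptp, Stx3, Rtn4 and Gnaq were at LAB levels in all NAB mice, Yipf4, Dgkq, Ttc27 and Slco1c1 at HAB levels, and Enpp5, Spata7, Zfp871 and Runx1t1 had NAB mice in the HAB range and others in the LAB range. For Pdhb all NAB arrays (24.8 to 37.5) exceeded every HAB array (16.6 to 21.6) and every LAB array (2.35 to 3.89).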

How the data were processed

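The authors summarised the bead signals with BeadStudio and normalised them with the QSpline method, and the deposited values are linear intensities of 46643 probes on 75 arrays. A table of intensities before normalisation (156 per-sample columns whose names match no label) was not used, and 3 DG arrays had no values. Gene symbols came from the platform annotation, updated through RefSeq (32794 probes with 1 symbol, 55 with several, 13794 with none), and promoters from RefSeq (GRCm38.p6).

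Log2 intensities of the 17 CeA arrays were fitted as 3 line means with limma 3.58.1 in R 4.3.3, and p-values were adjusted by the Benjamini-Hochberg method over 17974 probes that exceeded the array background on at least 5 CeA arrays. Region contrasts came from a joint fit of 15 groups of region and line, with the mouse as a random block (consensus correlation 0.0158). The labels number the mice, and an equal number was taken as the same animal in different regions. They hold 6 HAB, 8 LAB and 7 NAB numbers, while the methods name 6 mice a line, so that this identity is not certain. The fit was tested on simulated data. Every array is a different mouse within a region. Hybridisation batch held a whole region, and the slide of an array was not used here, so that its part in any result was not tested. Precision is limited by the number of arrays.

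Named genes were the 12 largest increases and the 12 largest decreases without overlap between HAB and LAB, called genes of the lists, genes with at least 2 agreeing probes, genes in runs of neighbours, called genes of the region contrasts, the 10 called probes with the smallest adjusted p, and other probes of these genes. Rfng, Hmgxb3 and list genes that were not called were named after their values were seen. Members and lists were chosen with earlier results of these data known. Alternatives were another offset, scaling, filter, weighting or prior, a minimum fold, fewer lines, and leaving out each array.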

Additional observations from a re-analysis of the deposited data

Results flagged for a closer look

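Single mice stood far from the others of their line for 13 of 150 groups of values (75 named probes in 2 lines), where chance would give about 7.5. HAB mouse 17 accounted for 5 of them. It was low for C030034I22Rik (13.2, others 23.2 to 29.0), Gabbr1 (56.1, others 72.9 to 83.5), Slc1a2 (126, others 215 to 249.9) and Slc30a6 (18.8, others 21.4 to 23.1), and high for H2-T23 (45.6, others 21.6 to 27.4). HAB mouse 05 was low for Ccdc88a (2.11, others 6.92 to 9.96). LAB mouse 06 was low for Sv2a (222, others 349.8 to 411) and Tmem14c (12.7, others 146 to 185) and high for Riok1 (6.48, others 2.23 to 2.49). LAB mouse 03 was high for Hbb-bs (134, others 12.5 to 21.2) and for a probe of Twistnb (8.48, others 5.75 to 6.32). LAB mouse 21 was high for Apbb1 (265, others 198 to 214), and LAB mouse 19 low for Fam189a1 (10.0, others 14.5 to 16.0).

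The line difference of the CeA differed from that of the other 4 regions by a joint test for the probe 105340292 with no gene name (-1.002 on the log2 scale), Tmie (-0.81), Tead2 (0.62), Hyi (-0.56), Fam189a1 (0.65), Klf5 (-1.0) and Ergic3 (-0.39). It differed from that of the BLA for Tmie (-1.03), Kcnj16 (-0.74), Nupr1 (1.23), Cd6 (1.68), Ghrh (-1.47), the probe 105340292 (-0.91) and the unnamed probe 2970136 (0.73).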

How the results depend on the processing

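The count of 399 probes stayed within 1.5 times under all alternatives. It ranged from 322 without a filter to 512 in the joint fit with the mouse as a replicate block (254 higher, 258 lower, 364 of the 399 shared), and from 324 to 408 when single CeA arrays were left out (167 to 216 higher, 152 to 194 lower). Of 131 called probes named by rule, 98 passed the threshold under every alternative in which they were tested (21 to 23 of the 23), 33 missed it under at least 1, and none changed sign. Among the latter, Abcc10 missed it in 16, Romo1 in 14, Ankle2 in 13 and Plpbp and Synpo2 in 12. Abcc10, Romo1, Ankle2 and Synpo2 belong to runs of neighbours. Of the genes described above, 1 probe each of Zfp318, Dlk1, D430041D05Rik and Slc1a2 missed it in 10, of Hbb-b2 in 9, of Sorcs1 and Tomm6 in 8, of Chga and Syngr1 in 7, of Med20 in 6, of Twistnb in 4, of Ergic3 in 3, of H2-T23 and Ninl in 2 and of Kcnh1 and Zfp871 in 1.

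The region contrasts depended more on the settings. With 16 added before the log2 the contrast with the other 4 regions called 11 probes, with array weights 11 and without a filter 3. With median-centred arrays it called 5, none of them higher, against 2 higher and 5 lower. Without the replicate block it called 5. Against the BLA, array weights gave 12, no filter 3 and no replicate block 6. Leaving out single arrays gave 2 to 10 and 1 to 11 probes. Against the other 4 regions, 3 probes were called without HAB mouse 01, 05 or 20, 4 without HAB mouse 09 or LAB mouse 14, and 2 without LAB mouse 19. Against the BLA, 3 were called without HAB mouse 11 or 17, 4 without HAB mouse 20 or LAB mouse 21, 11 without LAB mouse 06 and 1 without LAB mouse 19. The cause was not tested. Of 16 alternatives of the contrast with the other regions, Tmie passed in 16, Tead2 in 14, Hyi and Fam189a1 in 8, Klf5 in 5 and Ergic3 in 3. Against the BLA, Tmie passed in 16, Nupr1 in 15, Kcnj16 in 13, Cd6 in 11 and Ghrh in 6.

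HAB and LAB share no mouse, so that pairing enters the joint fit alone. Probes near background limit the folds, which are bounds there.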
